A study of Mus musculus with 12 samples.

Results

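Genes that carry or restrain ErbB and FGF receptor signalling were followed in sorted mouse intestinal stem cells (ISCs). They were the ErbB receptors Egfr, Erbb2 and Erbb3, the ErbB inhibitor Errfi1, the FGF receptors Fgfr2, Fgfr3 and Fgfr4, and the sprouty inhibitors Spry1, Spry2 and Spry4. They were taken by gene symbol and are 10 of the 47729 genes in the deposited count table. RNA was sequenced from Lgr5-EGFPhi ISCs of the small intestine in 12 libraries, 3 in each of 4 groups. All mice were Lgr5-EGFP-IRES-CreERT2, in which EGFP and an inducible Cre are expressed from the Lgr5 locus. For the mice of the study in general, the methods give an age of 8 to 10 weeks and both sexes. Stress mice were restrained on 1 day and Ctrl mice were not. For the chronic protocol, the methods give sessions of 3 h and add that unrestrained controls went without food and water during them. Vehicle mice were injected intraperitoneally with 20% cyclodextrin, and CORT mice with corticosterone at 5 mg/kg, also for 1 day. The stress libraries are titled CRS, which in the study stands for a chronic protocol of daily restraint over weeks, and this conflicts with the single exposure that the study describes for these RNA samples and that is taken here. They are numbered 1+2, 3 and 4+5+6. The labels do not say whether a joined number marks pooled mice, nor which sex a library came from, so the p-values measure only the spread between these libraries, which may be technical.

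ErbB receptors are tyrosine kinases at the cell surface that pair with each other when ligands of the EGF and neuregulin families bind, and pass the signal to the ERK and AKT kinases. EGF is a niche signal of the crypt, supplied in part by Paneth cells, and ISC organoids depend on it in culture. FGF receptors use the same downstream kinases, and both families switch on their own brakes: Errfi1 binds and blocks the kinase domain of ErbB receptors, and sprouty proteins limit the step from receptor to ERK.

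The library totals ran from 15934907 to 17135770 estimated counts in Ctrl and stress, from 16465961 to 31280267 in vehicle and from 29426183 to 69533214 in CORT, so CORT libraries were deeper than most vehicle libraries. Levels are given as CPM, counts scaled to a common library size over all 12 libraries. The 6 ISC markers summed to 10678 to 13938 CPM in every library, most of it from Olfm4, and they did not move together. Ascl2, a transcription factor of ISCs, was lower in stress (53.8 to 69.0 CPM) than in Ctrl (138 to 148 CPM) and lower in CORT (59.3 to 108 CPM) than in vehicle (149 to 171 CPM), with log2 fold changes of −1.23 and −0.998 (edgeR adjusted p = 3.4e-04 and 0.0114). Lgr5, at 128 to 248 CPM, and Smoc2 were lower in CORT than in vehicle (log2 −0.43 and −0.31, adjusted p = 0.0277 and 0.0474). The blood markers summed to 2.06 to 6.61 CPM and the stromal and endothelial markers to 0.610 to 4.10 CPM over the 12 libraries. Hbb-bs, Cdh5 and Col1a2 had 0 counts in each, while Itgam averaged 2.07 to 4.71 CPM and Pecam1 0.544 to 2.35 CPM over the groups. Summed over 6 markers each, enterocyte genes were 179 to 202 CPM in Ctrl and 830, 322 and 1685 CPM in stress 1+2, 3 and 4+5+6. Goblet markers stood at 491 to 614 CPM in Ctrl and 940, 505 and 1458 CPM in the same stress libraries. Paneth markers were 136 to 173 CPM in Ctrl, 186 to 211 CPM in vehicle and 104 to 116 CPM in CORT. Mmp7 weighed most in this, with means of 22.1, 90.6 and 36.6 CPM in Ctrl, vehicle and CORT. Each of the other Paneth markers also averaged lower in CORT than in vehicle. The glucocorticoid target Fkbp5 differed between the control groups, with 58.2 to 68.2 CPM in Ctrl and 138 to 191 CPM in vehicle. Tsc22d3, the other gene checked for the treatment, overlapped between them, at 29.8 to 39.9 CPM in Ctrl and 28.2 to 33.7 CPM in vehicle. Its log2 fold change was −0.13 (edgeR adjusted p = 0.798). In bulk RNA, fewer cells of a type and less RNA per cell cannot be told apart.

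The sequence upstream of the starts of Errfi1 and Fgfr2 is shown because these members moved most. The table of RefSeq starts used here (GRCm38.p6) matched 8 of the 10 members, with 10 starts; Erbb3 and Spry4 were not matched. In the 250 bases before each start, 4 motifs were searched on both strands: the 6-base glucocorticoid receptor motif AGAACA or its reverse complement TGTTCT, the GC box GGGCGG or CCGCCC, the cAMP response element TGACGTCA, and the TATA box TATAAA or TTTATA. Capitals mark every match, and overlapping matches run together. The Errfi1 gene lies on chromosome 4 from 150853919 to 150868892, and its upstream start is preceded by chr4:150853546-150853795 (plus strand) and its downstream start by chr4:150854820-150855069 (plus strand). The Fgfr2 start is preceded by chr7:130266809-130267058 (minus strand), inside an intron of the longest Fgfr2 transcript and upstream of all others.
Errfi1, upstream start: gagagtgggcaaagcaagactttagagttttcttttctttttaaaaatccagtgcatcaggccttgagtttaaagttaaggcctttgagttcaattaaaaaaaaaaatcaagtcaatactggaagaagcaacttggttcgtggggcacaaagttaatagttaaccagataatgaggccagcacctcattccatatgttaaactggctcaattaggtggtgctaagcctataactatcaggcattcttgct
Errfi1, downstream start: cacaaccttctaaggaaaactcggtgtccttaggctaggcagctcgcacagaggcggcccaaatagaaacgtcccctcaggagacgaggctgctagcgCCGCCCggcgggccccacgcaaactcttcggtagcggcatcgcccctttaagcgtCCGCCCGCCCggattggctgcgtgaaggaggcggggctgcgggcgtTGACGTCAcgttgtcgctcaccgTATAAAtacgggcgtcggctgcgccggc
Fgfr2: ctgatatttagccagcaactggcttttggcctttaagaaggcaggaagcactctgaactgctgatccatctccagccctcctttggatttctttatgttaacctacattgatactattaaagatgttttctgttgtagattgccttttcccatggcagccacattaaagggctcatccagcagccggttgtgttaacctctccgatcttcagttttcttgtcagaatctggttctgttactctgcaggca
The downstream Errfi1 start held 3 GC boxes, 1 cAMP response element and 1 TATA box in sequence of 64.8% G and C. The upstream Errfi1 window (38.0% G and C) and the Fgfr2 window (44.0%) held none of the 4 motifs, and the median over all listed starts was 52.4%. Among the members, a GC box stood before 6 of 10 starts, against 32.7% of 32851 mouse starts. The cAMP response element was found before 1 member start and 1.55% of all starts, and the TATA box before 1 and 12.4%. The glucocorticoid receptor motif was before 0 of the 10 starts and 16.1% of all. These are matches of letters in short windows and say nothing of binding elsewhere.

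Set beside each other per length, as deposited FPKM, the members covered a wide range. In Ctrl, Erbb3 was highest at 44.0 ± 2.98 FPKM (SD, n = 3), followed by Erbb2 at 32.4 ± 0.874 FPKM, and their ranges were separate. Fgfr3, Fgfr4 and Fgfr2 came next at 14.7, 14.3 and 14.0 FPKM, which differed by less than their spread between libraries. Errfi1, Spry1, Spry2 and Egfr formed a lower set at 6.48, 6.43, 6.15 and 5.14 FPKM, in which neighbours also overlapped. Spry4 was close to 0 at 0.140 FPKM. The order in vehicle was alike at the top, with Erbb3 at 46.3 ± 3.96 and Erbb2 at 37.1 ± 3.43 FPKM. In stress and in CORT, Errfi1 stood in the third place, at 14.4 ± 2.10 and 11.7 ± 4.10 FPKM. Its ranges there overlapped those of the FGF receptors next in order, Fgfr2 in stress and Fgfr4 in CORT.

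**Figure D1:**
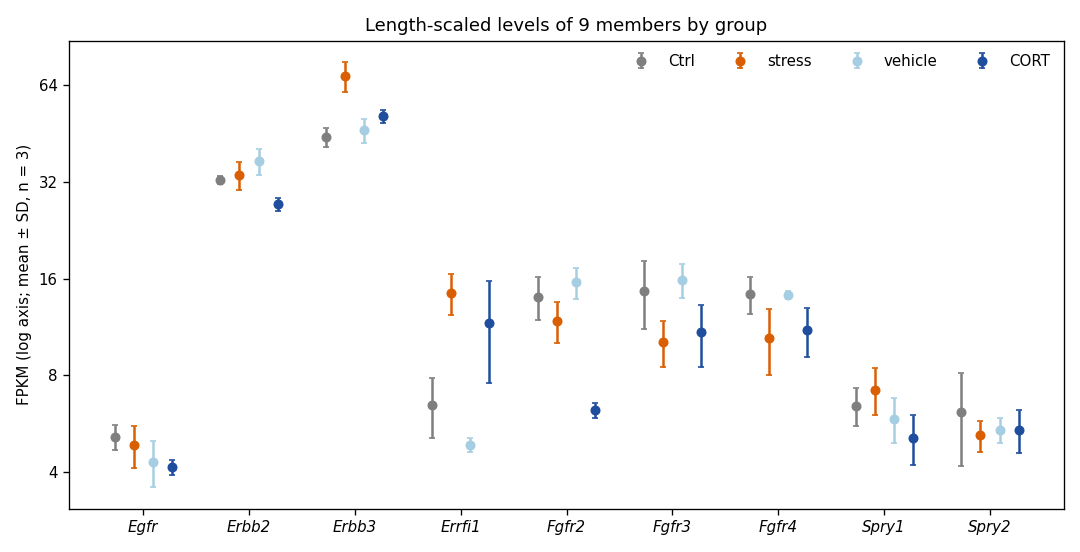
Length-scaled level (FPKM, log axis) of 9 members in the 4 groups, points with bars giving mean ± SD (n = 3); Spry4, near 0, is left out. Erbb3 and Erbb2 are highest in each group, Errfi1 is higher in stress and CORT than in their controls, and Fgfr2 is lowest in CORT at 6.22 FPKM.

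After restraint stress, Errfi1 and Erbb3 rose, and no member passed the test as lower. Of 10 members tested, 2 were called higher and 0 lower by edgeR at an adjusted p below 0.05, against 1.3% of the 13722 genes called higher and 0.59% called lower. At an unadjusted p below 0.05, 2 members were lower, where 6.79% of genes were, and DESeq2 called 1 of them, Fgfr3, where it called 1.48% of genes lower. Errfi1 was the only member called with a fold change past 2, where 0.612% of genes were called higher past that size. The median log2 fold change over the members was 0.01, as against −0.0028 over all genes tested.

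After CORT, Errfi1 rose and Fgfr2, Fgfr3 and Erbb2 fell. Of the 9 members tested (Spry4 was below the count filter), 1 was called higher and 3 lower, where 3.64% of the 14656 genes tested were called higher and 4.5% lower. The median log2 fold change was −0.16 over the 9 members and 0.01 over all genes tested. Errfi1 and Fgfr2 were past 2-fold, where 1.13% of genes were called higher and 0.737% lower past that size.

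**Figure D2:**
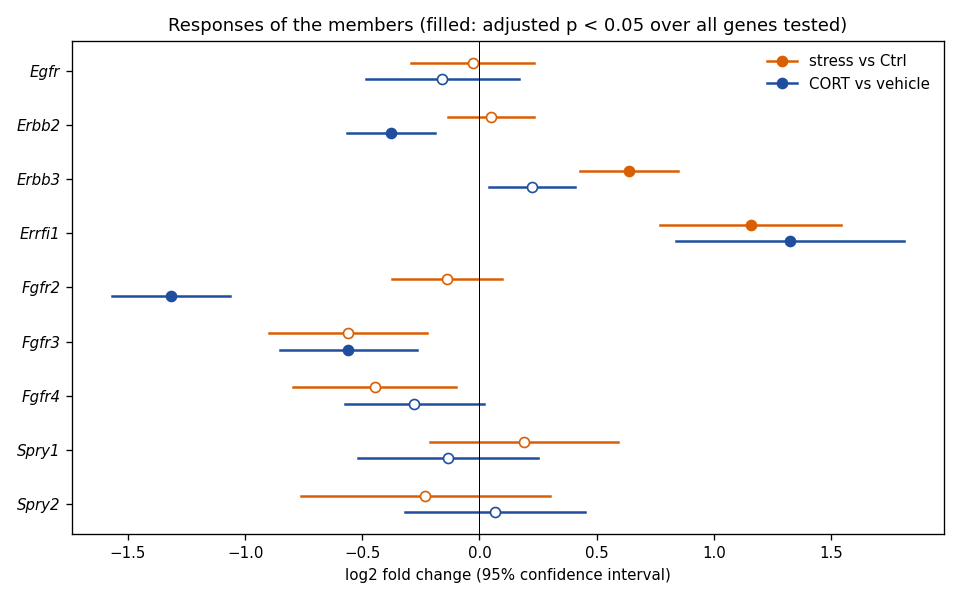
Log2 fold change with 95% confidence interval of 9 members in stress against Ctrl (orange) and CORT against vehicle (blue), 3 libraries a group; filled points have an edgeR adjusted p below 0.05 over all genes tested. Errfi1 lies above 0 in both comparisons, Erbb3 is filled in stress, and Fgfr2, Fgfr3 and Erbb2 are filled and below 0 in CORT.

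Errfi1 encodes the cytoplasmic inhibitor that docks onto activated ErbB kinase domains and promotes receptor turnover. It measured 26.8, 22.2 and 17 CPM in Ctrl 1, 2 and 3, and 56.9, 43.7 and 46.5 CPM in stress 1+2, 3 and 4+5+6. Each stress library was above each Ctrl library, a separation in this direction that 10.2% of genes tested showed. The difference was 2.23-fold (log2 1.16 ± 0.17 SE, edgeR adjusted p = 0.0115). The call was lost without Ctrl 2 (log2 1.17, adjusted p = 0.0624) and without stress 1+2 (log2 1.04, adjusted p = 0.0566). Without stress 4+5+6 the value was log2 1.2 (adjusted p = 0.0317).

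In vehicle 3, 5 and 6 Errfi1 stood at 15.8, 15.6 and 17.3 CPM, and in CORT 2, 4 and 5 at 53.3, 42.0 and 27.0 CPM. The CORT libraries spread widely, but the lowest was above every vehicle library, as for 14.3% of genes tested. That lowest library, CORT 5, was close to Ctrl 1 at 26.8 CPM. The rise was 2.51-fold (log2 1.33 ± 0.22 SE, edgeR adjusted p = 0.00645), and it was called with each of the 6 libraries left out, with adjusted p up to 0.0335. No difference between the stress and the CORT response was detected for Errfi1: the stress response minus the CORT response was −0.17 on the log2 scale, with a 95% interval from −0.83 to 0.48 (adjusted p = 0.874).

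Among the ErbB receptors, Erbb3 rose with stress, Erbb2 fell with CORT, and Egfr changed detectably in neither comparison. Erbb3, a receptor with little kinase activity of its own that binds neuregulins and recruits the AKT pathway, measured 309, 308 and 267 CPM in Ctrl and 450, 428 and 498 CPM in stress. All stress libraries were above all Ctrl libraries, as for 10.2% of genes tested. The rise was 1.56-fold (log2 0.64 ± 0.09 SE, edgeR adjusted p = 0.0101). It lost its call without Ctrl 1, Ctrl 2 or Ctrl 3 (adjusted p = 0.0670, 0.05001 and 0.0663), with log2 values of 0.68, 0.67 and 0.58. Without stress 4+5+6 it was 0.58 with adjusted p = 0.0355.

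Under CORT, Erbb3 was 363, 362 and 348 CPM, against 281, 327 and 308 CPM in vehicle. The groups did not overlap, as for 14.3% of genes tested in that direction. The difference was small and did not pass the test (log2 0.22 ± 0.08 SE, edgeR adjusted p = 0.133). The stress response of Erbb3 exceeded the CORT response by 0.41 on the log2 scale, which was not called (95% interval 0.15 to 0.67, adjusted p = 0.162; DESeq2 adjusted p = 0.0327).

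Erbb2, which has no known ligand and is the preferred partner of the other ErbB receptors, was 189, 221 and 194 CPM in vehicle and 152, 150 and 164 CPM in CORT. Every CORT library was below every vehicle library, as for 14.4% of genes tested. It fell by 0.38 on the log2 scale (SE 0.08, edgeR adjusted p = 0.0250), that is to 0.769 of the vehicle level. The call did not hold without vehicle 5 (adjusted p = 0.0717), CORT 2 (0.0776), CORT 4 (0.113) or CORT 5 (0.0555), while the log2 value stayed between −0.42 and −0.31. In Ctrl the level was 184, 176 and 175 CPM and in stress 182, 174 and 197 CPM, which overlapped (log2 0.05, 95% interval −0.14 to 0.23). The difference between the responses was 0.42 (edgeR adjusted p = 0.114, DESeq2 adjusted p = 0.0192). Erbb2 shares 9 exon bases with Mien1 on the opposite strand, and no source states that reads were counted by strand. Mien1 averaged 25.9 CPM and had a log2 fold change of −0.07 in CORT (adjusted p = 0.838).

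Egfr, the receptor for EGF, TGF-alpha and amphiregulin, measured 48.8, 45.6 and 50.1 CPM in Ctrl against 54.7, 42.5 and 44.3 in stress, and 54.6, 44.3 and 36.5 in vehicle against 35.9, 43.4 and 42.0 in CORT. All 4 groups overlapped with their neighbours. The log2 fold change was −0.03 in stress (95% interval −0.29 to 0.23) and −0.16 in CORT (−0.49 to 0.17).

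As a share of the summed FPKM of the 3 ErbB receptors, Erbb3 moved from 54.7, 55.4 and 51.6% in Ctrl to 63.3, 64 and 64.5% in stress. The corresponding shares were 51.6, 52.7 and 54.0% in vehicle and 63.2, 62.9 and 60.1% in CORT. Erbb3 held a larger share in both treated groups, with no overlap with their controls. Erbb2 held 39.8 ± 1.37% in Ctrl against 31.5 ± 0.172% in stress, and 42.3 ± 0.610% in vehicle against 32.9 ± 1.42% in CORT (SD, n = 3). The summed FPKM behind these shares was 81.6 ± 2.74 in Ctrl and 107 ± 11 in stress, but 87.7 ± 7.0 in vehicle and 82.7 ± 2.53 in CORT. The larger share went with a higher Erbb3 level in stress, and in CORT with a lower Erbb2 level beside a small difference in Erbb3. These shares are descriptions and were not tested.

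**Figure D3:**
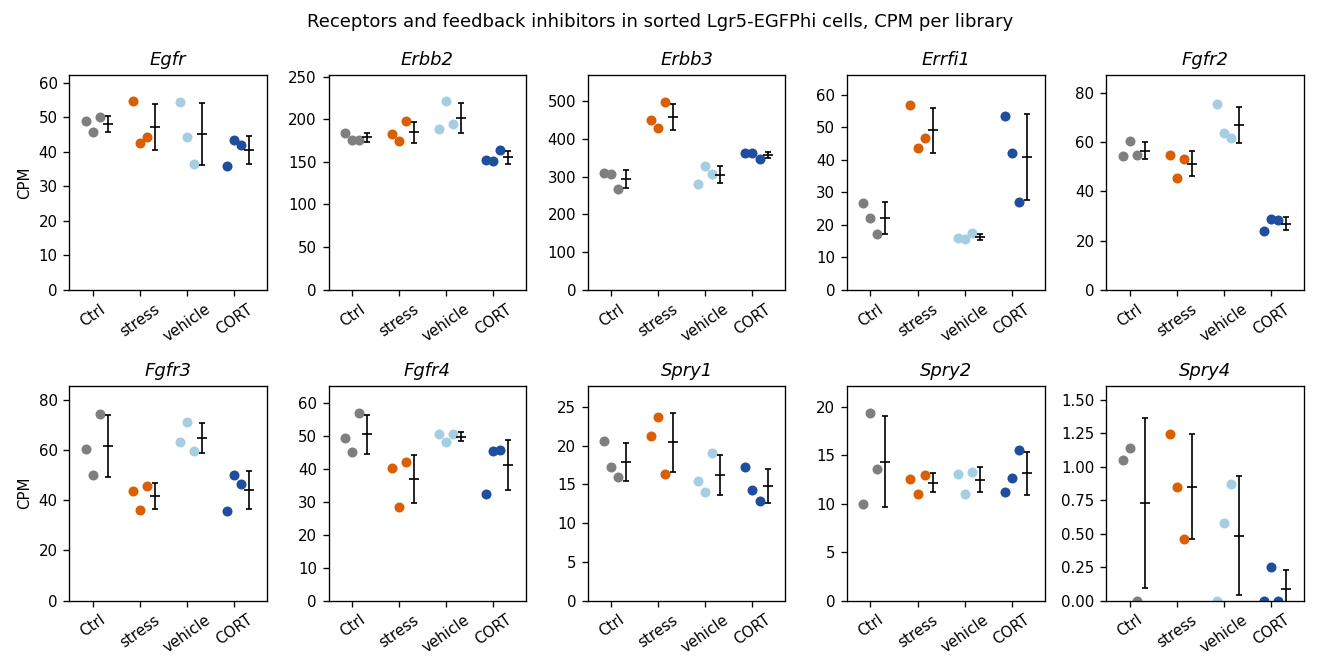
CPM of the 10 members in each of the 12 libraries (points), and the group mean ± SD in black, each panel on its own axis from 0. Fgfr2 in CORT (23.8 to 28.7 CPM) lies below all other libraries, and Errfi1 in stress and CORT lies above Ctrl and vehicle, narrowly for CORT 5 (27.0 CPM) against Ctrl 1 (26.8 CPM).

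All 3 FGF receptors were lower in every CORT library than in every vehicle library, as were 14.4% of genes tested, and 2 of them, Fgfr2 and Fgfr3, passed the test, as did 4.5% in that direction. Fgfr2, whose epithelial form receives FGF7 and FGF10 from the mesenchyme, measured 75.4, 63.7 and 61.6 CPM in vehicle and 23.8, 28.7 and 28.2 CPM in CORT. The CORT libraries were also below all Ctrl (54.2, 60.4 and 54.6 CPM) and all stress libraries (54.9, 45.5 and 53.2 CPM). The fall was 2.49-fold (log2 −1.32 ± 0.11 SE, edgeR adjusted p = 3.0e-04). It was called with any of the 6 libraries left out (adjusted p up to 0.00242) and in all 8 other settings (log2 −1.32 to −1.19). No change of Fgfr2 was detected in stress (log2 −0.14, 95% interval −0.37 to 0.10, adjusted p = 0.609). The stress response exceeded the CORT response by 1.17 on the log2 scale (SE 0.16, edgeR adjusted p = 0.00660). Of the 10 members, Fgfr2 was the 1 called for this difference, where 0.388% of 14415 genes were. This call held with any of the 12 libraries left out, and was lost with limma on log2(FPKM + 1) and on log2(FPKM + 0.1) (adjusted p = 0.0619 and 0.0548).

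The annotated span of Fgfr2 (mm10 chromosome 7, 130162451 to 133123350, minus strand, 2961 kb) is long because 1 of its 27 GENCODE transcripts, Fgfr2-217, has 2 exons beyond 130266263, where the next transcript begins. The span covers 67 other genes, 20 of them at a mean of 1 CPM or more. Only Ctbp2 among these 20 shares exon bases with Fgfr2 (314 bases, by Fgfr2-217 alone), and it had a log2 fold change of −0.19 in CORT (edgeR adjusted p = 0.198). By edgeR 0 of the 20 were called higher and 0 lower in CORT. At an unadjusted p below 0.05, 4 were higher and 4 lower, where 11.2% and 12.1% of all genes were, and DESeq2 called Oat higher and Dmbt1 lower. The 20 had log2 values from −0.82 for Chst15 to 0.73 for Gm16477 and a median of 0.09.

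Dmbt1, a secreted mucosal defence protein encoded within that span on the opposite strand, shares 0 exon bases with Fgfr2 and was far more abundant. It measured 960, 968 and 1077 CPM in Ctrl against 1490, 2508 and 1956 in stress, and 2399, 2998 and 2628 in vehicle against 2173, 2303 and 1880 in CORT. Dmbt1 was higher in stress than in Ctrl (log2 0.99 ± 0.16 SE, edgeR adjusted p = 0.0162, lost without Ctrl 1, 2 or 3 with adjusted p up to 0.116, and in 3 of 8 other settings with adjusted p up to 0.0945, with no count filter). Vehicle was higher than Ctrl by 1.42 on the log2 scale (adjusted p = 8.2e-05), and CORT differed from vehicle by −0.34 (adjusted p = 0.107, DESeq2 adjusted p = 0.0103), with every CORT library below every vehicle library. Fgfr2 was higher in vehicle than in Ctrl by 0.25 on the log2 scale, which was not called (edgeR adjusted p = 0.395). It was lower in all CORT than in all vehicle libraries, as were 14.4% of genes tested. The values of the 2 genes were unlike in stress, at log2 0.99 for Dmbt1 and −0.14 for Fgfr2 (edgeR adjusted p = 0.609 for Fgfr2). They were also unlike in CORT, where Fgfr2 was below Ctrl and Dmbt1 was above it.

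Fgfr3, a receptor expressed in crypt-base cells, measured 63.4, 71.5 and 59.7 CPM in vehicle and 35.7, 49.98 and 46.6 CPM in CORT. The groups were apart, and the level fell by 0.56 on the log2 scale (SE 0.13, edgeR adjusted p = 0.0299). The call was lost without vehicle 3 (adjusted p = 0.0602), vehicle 5 (0.102), CORT 2 (0.0588) or CORT 5 (0.0694). In Ctrl it stood at 60.4, 50.2 and 74.7 CPM and in stress at 43.8, 36.0 and 45.6 CPM. The stress libraries were again lower throughout, as for 10.2% of genes tested. The log2 fold change of −0.56 (SE 0.15) was of the same size as in CORT without passing the test (edgeR adjusted p = 0.106, DESeq2 adjusted p = 0.0227). The difference between the responses was −0.01, with a 95% interval from −0.48 to 0.46. Fgfr3 shares 998 exon bases with G630022F23Rik on the opposite strand, which averaged 0.813 CPM.

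Fgfr4, which with its co-receptor Klb is the receptor of the gut hormone FGF15, was 50.6, 48.1 and 50.5 CPM in vehicle and 32.4, 45.4 and 45.7 CPM in CORT. Ctrl libraries held 49.5, 45.0 and 56.9 CPM and stress libraries 40.4, 28.6 and 42.0 CPM. Both treated groups lay below their controls, as for 10.2% of genes tested in stress and 14.4% in CORT. The differences did not pass the test (log2 −0.45, edgeR adjusted p = 0.203 in stress, and −0.28, adjusted p = 0.242 in CORT). Klb was below the count filter in all comparisons.

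The summed FPKM of the 3 FGF receptors was 43.0 ± 3.66 in Ctrl against 32.4 ± 5.75 in stress, and 45.6 ± 2.66 in vehicle against 28.2 ± 4.64 in CORT (SD, n = 3). Within that sum, Fgfr2 held 36.8, 32.8 and 32.6% in vehicle and 25.7, 20.7 and 20.9% in CORT, with no overlap. In Ctrl its share was 31.0, 41.0 and 26.9%, and in stress 35.8, 38.2 and 35.7%, which overlapped. The lower sum in CORT went with a smaller share of Fgfr2; this is a description without a test.

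No sprouty gene passed the test in either comparison, and their groups overlapped. Spry1 measured 20.6, 17.2 and 15.9 CPM in Ctrl against 21.2, 23.8 and 16.3 in stress, and 15.4, 14.1 and 19.0 in vehicle against 17.2, 14.3 and 12.9 in CORT (log2 0.19, 95% interval −0.21 to 0.59 in stress, and −0.13, −0.52 to 0.25 in CORT). Spry2 averaged 14.3 ± 4.70 CPM in Ctrl against 12.2 ± 1.01 in stress, and 12.5 ± 1.27 in vehicle against 13.1 ± 2.18 in CORT (SD, n = 3). Its log2 fold change was −0.23 in stress (−0.76 to 0.30) and 0.07 in CORT (−0.32 to 0.45). Spry4 was at the limit of detection, with at most 1.24 CPM, and had 0 counts in Ctrl 3, vehicle 3, CORT 2 and CORT 5. A count of 0 allows up to 0.732, 0.713, 0.179 and 0.413 CPM in these libraries, taking 3 read pairs as the limit and counting error only.

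The control groups were compared with each other because their handling differed. Of the 10 members, 0 were called between vehicle and Ctrl by edgeR or DESeq2, where edgeR called 0.799% of 13642 genes and DESeq2 1.31% higher and 1.1% lower. At an unadjusted p below 0.05, 1 was higher (Fgfr2, log2 0.25, adjusted p = 0.395) and 1 lower (Errfi1, log2 −0.43, adjusted p = 0.383), against 6.16% and 4.93% of all genes. The immediate-early genes Fos and Egr1, which respond to ERK, were much lower in vehicle: Fos averaged 69.4 ± 27.4 CPM in Ctrl and 7.59 ± 3.10 in vehicle, and Egr1 60.4 ± 28.7 and 8.12 ± 1.64 (log2 −3.16 and −2.91, adjusted p = 0.00155 for each). They were not called in stress against Ctrl or in CORT against vehicle.

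A list of 75 other genes of the ErbB and FGF pathways was set beside the members. In stress, 59 were tested, of which 0 were higher and 2 lower, and the median log2 fold change was −0.02, against 1.3% and 0.59% of all genes and a median of −0.0028. At an unadjusted p below 0.05, 8 were higher and 9 lower, where 8.39% and 6.79% of all genes were, and DESeq2 called 2 higher and 4 lower, where it called 2.92% and 1.48% of all genes. The 2 called genes were ERK targets. Myc, a driver of crypt cell growth, was 265 ± 25.7 CPM in Ctrl and 191 ± 8.50 in stress (log2 −0.47, edgeR adjusted p = 0.0332). Phlda1, an ISC-enriched gene, was 74.7 ± 8.36 and 52.3 ± 2.83 CPM (log2 −0.51, adjusted p = 0.0403). Each was called with 1 of the 6 libraries left out and not with the other 5, with adjusted p up to 0.153 and 0.199 without stress 1+2 and Ctrl 1. Of 8 other settings, Myc was called in 4 and Phlda1 in 6, and neither with no count filter or with all 12 libraries in the fit.

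In CORT, 62 of the 75 were tested, 1 was called higher and 10 lower, where 3.64% and 4.5% of all genes tested were, and the median log2 fold change was −0.08 against 0.01. At an unadjusted p below 0.05, 9 were higher and 17 lower, where 11.2% and 12.1% of all genes were. DESeq2 called 6 higher and 11 lower, where it called 5.65% and 6.95% of all genes. Of 10 ligands tested, Tgfa was higher and Hbegf lower, both ligands of Egfr. At an unadjusted p below 0.05, 4 ligands were higher and 1 lower, and DESeq2 called 3 higher and 1 lower. Egf, Nrg4 and Fgf2 had log2 values of 1.32, 0.56 and 1.63, which edgeR did not call (adjusted p = 0.109, 0.0793 and 0.0635). Tgfa measured 26.3, 24.8 and 21.6 CPM in vehicle and 43.4, 48.5 and 34.4 CPM in CORT (log2 0.80 ± 0.14 SE, edgeR adjusted p = 0.00985, and 0.0514 without CORT 4). Hbegf measured 8.26, 8.03 and 9.49 CPM in vehicle and 3.63, 3.57 and 3.85 CPM in CORT. It fell by 1.23 on the log2 scale (SE 0.19, adjusted p = 0.00487), and was called without any 1 of the 6 libraries. Hbegf in stress had a log2 value of 0.08 (95% interval −0.54 to 0.69), and the difference between its responses, 1.30, was not called (adjusted p = 0.0981).

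Of 4 shedding genes, Rhbdf1 and Rhbdf2, which support the protease that releases EGF-family ligands, were lower in CORT (log2 −0.64 and −0.53, edgeR adjusted p = 0.00739 and 0.0193). Of 17 further brakes on the pathway, 4 were lower and 0 higher. DESeq2 called 2 higher and 4 lower, where it called 5.65% of all genes higher and 6.95% lower. At an unadjusted p below 0.05, 3 were higher and 7 lower, where 11.2% and 12.1% of all genes were. Not called by edgeR were Spred2 (mean 57.4 CPM in vehicle, 73.2 in CORT), Il17rd (29.9 and 43.8) and Spred1 (45.7 and 37.7). In stress, Spred2 and Il17rd had log2 values of 0.50 and 0.64, also not called (edgeR adjusted p = 0.0633 and 0.0574). Dusp7 went the other way in stress, at log2 −0.98, and was not called either (edgeR adjusted p = 0.0546). Of the 16 brakes tested in stress, 5 were higher and 1 lower at an unadjusted p below 0.05, where 8.39% and 6.79% of all genes were. Dusp4, a nuclear MAP kinase phosphatase, measured 13.1, 15 and 12.5 CPM in vehicle and 5.53, 5.52 and 4.65 CPM in CORT (log2 −1.37 ± 0.17 SE, adjusted p = 0.00176). The ERK phosphatases Dusp5 and Dusp7 were lower at log2 −1.24 and −0.84 (adjusted p = 0.0307 and 0.0384). Dusp7 averaged 13.4 CPM in Ctrl, 6.78 CPM in stress, 19.8 CPM in vehicle and 11.1 CPM in CORT. Lrig1, which sends ErbB receptors to degradation and marks crypt stem cells, was 396 ± 24.3 CPM in vehicle and 275 ± 29.8 in CORT (log2 −0.53, adjusted p = 0.0110, and 0.0615 without CORT 4). Dusp6, another ERK phosphatase, had higher values in both treated groups than in their own controls (log2 0.91 in stress and 0.81 in CORT). These did not pass (adjusted p = 0.139 and 0.127). Its mean was 4.46 CPM in Ctrl, 1.95 CPM in vehicle and 3.44 CPM in CORT, so CORT was not above Ctrl.

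Also lower in CORT were Fgfrl1, an FGF-binding receptor without a kinase domain (log2 −0.46, edgeR adjusted p = 0.0253) and Phlda1 (log2 −0.65, adjusted p = 0.0470). Leaving out each library in turn, Rhbdf1 and Dusp4 were called all 6 times and Rhbdf2 3 times (adjusted p up to 0.0887, without CORT 4). Dusp5 was called 2 times (up to 0.103, without CORT 5), and Dusp7, Fgfrl1 and Phlda1 1 time each (up to 0.15 without CORT 4, 0.0834 without CORT 5 and 0.176 without CORT 4). Lrig1 shares 144 exon bases with Slc25a26 on the opposite strand. Ligands and receptors of these families that are known from neighbouring cells were scarce. Erbb4 and, in 11 libraries, Nrg1 had 0 counts, which allows up to 0.746 CPM in the shallowest library, and Fgfr1 averaged 0.397 to 0.860 CPM over the groups. Areg, Ereg and Egf averaged below 2 CPM in each group, and Fgf15 at most 0.0780 CPM. For the difference between the responses, 0 of the 60 listed genes tested were called by edgeR, where 6 were higher and 4 lower at an unadjusted p below 0.05, against 7.01% and 5.47% of all genes. DESeq2 called 5 higher and 1 lower, against 1.78% and 0.839% of all genes.

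**Figure D4:**
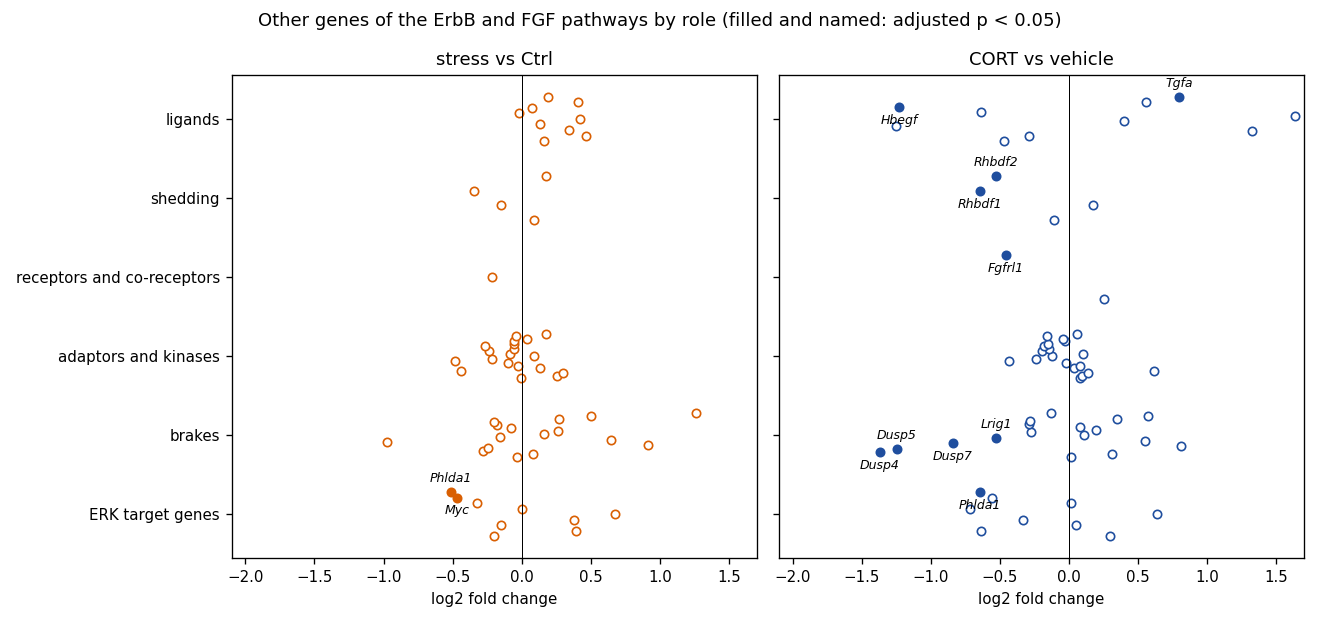
Log2 fold changes of the other ErbB and FGF pathway genes by role, in stress against Ctrl (left) and CORT against vehicle (right); each point is a gene tested, with 1 gene left out, and filled, named points have an edgeR adjusted p below 0.05. The 2 called genes in stress lie below 0, and in CORT Tgfa is the 1 named gene above 0.

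The genes most like a member over all 12 libraries were found by the root mean square difference of centred log2(CPM + 0.5) profiles among 10622 genes with a mean of at least 5 CPM. Closest to Errfi1 were Txnip, an inhibitor of thioredoxin and glucose uptake, at 0.158, Klf9, a transcription factor induced by glucocorticoids, at 0.187, and Bcar3, a signalling adaptor, at 0.242, where the root mean square deviation of Errfi1 itself was 0.677. Their log2 fold changes were 1.31, 1.07 and 1.01 in stress and 1.17, 1.48 and 1.04 in CORT, a pattern fixed by how they were chosen and given as a description. Nearest to Fgfr2 were Nol4l, Clip2 and Mex3a, at 0.199, 0.206 and 0.208 against 0.504 for Fgfr2 itself. Their log2 values in CORT were −0.92, −0.96 and −0.998, likewise as a description. For Erbb3 they were Tbc1d22a, Pklr and Ifngr1 (0.109 to 0.117), for Fgfr3 Syngr1, Mars2 and Esrp2 (0.117 to 0.127), and for Erbb2 Zdhhc9, Efnb1 and Gpc4 (0.0555 to 0.0624). The points share libraries and depth, so likeness here is a description.

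Some marker sums of other cell types differed between stress and Ctrl. Summed tuft markers were lower, at 10.9 to 13.4 CPM in Ctrl and 4.91 to 9.76 CPM in stress, while goblet, Paneth and enteroendocrine sums overlapped Ctrl. Pou2f3 weighed most in the tuft sum, with means of 5.10 CPM in Ctrl and 2.08 CPM in stress, followed by Avil (2.53 and 1.49 CPM). Dclk1 went the other way at a low level (0.325 and 0.537 CPM). Summed enterocyte markers were above all Ctrl libraries in each of the 3 stress libraries, and their part in the Errfi1 and Erbb3 values was not tested. In CORT, summed enterocyte markers (125 to 191 CPM) overlapped vehicle (137 to 190 CPM), and Paneth markers were lower in all CORT libraries. The part of the Paneth markers, of Ascl2, Lgr5 and Smoc2 and of the greater depth in the CORT results was not tested.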

How the data were processed

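RNA of sorted ISCs was sequenced as paired 150-bp reads. The methods name HISAT2 2.0.5, featureCounts 1.5.0-p3 and DESeq2 1.20.0, whereas the submitters' processing notes name HISAT2 2.2.1, StringTie 2.2.1 and mm10. The deposited matrix holds estimated counts per gene as whole numbers. Coverage times transcript length came to 75 bases per count, so a read pair gives up to 4 counts. The deposited tables of each library also hold coverage as a signal and FPKM, both made by the authors. Strand use in counting is not given in the sources used here.

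Groups came from the labels. Estimated counts were tested with edgeR 4.0.16 (R 4.3.3; TMM, filterByExpr, quasi-likelihood F test, Benjamini-Hochberg over all genes tested, called at adjusted p below 0.05) in the 6 libraries of a comparison. The difference between the responses, (stress − Ctrl) − (CORT − vehicle), was fitted on all 12. Alternatives were DESeq2 1.42.0, its size factors in edgeR, no filter, at least 10 counts in every library, all 12 libraries in the fit, limma 3.58.1 on log2(FPKM + 1) and log2(FPKM + 0.1), counts divided by 4, and leaving out each library. Intervals of log2 fold changes include the spread between libraries. A count of 0 was taken to allow 12 counts (3 read pairs), which covers counting error only. Upstream sequences came from RefSeq, and exons from GENCODE M21.

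Named genes were the 10 members, Dmbt1, genes of at least 1 CPM whose span overlaps a member, listed pathway genes with an adjusted p below 0.05 and fixed ligands and receptors. The nearest profiles were the 3 closest genes for the members called. Fkbp5, Dusp6, Chst15 and others given for context were named after their values were seen. The members and lists were chosen with earlier results of these data known. Of the listed genes, 1 that was called lower in CORT is in the counts but is not reported here.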

Additional observations from a re-analysis of the deposited data

Results flagged for a closer look

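For Fgfr2 the change with stress and the change with CORT differed by a test of the difference itself, (stress − Ctrl) − (CORT − vehicle), at 1.17 on the log2 scale (edgeR adjusted p = 0.00660, all 12 libraries). The same test gave 1.32 for Dmbt1, which lies in the annotated span of Fgfr2 on the opposite strand (adjusted p = 0.0207). For Dmbt1, vehicle was already above Ctrl by 1.42. The call for Dmbt1 held in 7 of 12 fits with a library left out, with adjusted p up to 0.0824 without Ctrl 2. The cause of either difference was not tested.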

How the results depend on the processing

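No paired analysis was possible because the groups compared share fewer than 2 library numbers. With each library left out, the members called ranged from 0 to 2 in stress (2 with all libraries), 2 to 4 in CORT (4), and the pathway genes called from 0 to 6 in stress (2) and 4 to 10 in CORT (11). The member calls for the difference between the responses (1) and between vehicle and Ctrl (0) did not change. With no count filter, stress gave 0 members (Errfi1 adjusted p = 0.0774, Erbb3 0.0618) and 0 pathway genes. In stress the pathway genes called were 6 with DESeq2, 5 with all 12 libraries (neither Myc nor Phlda1), 4 with at least 10 counts in every library or counts divided by 4, and 1 with limma on log2(FPKM + 1) or log2(FPKM + 0.1). In CORT, DESeq2 called 17 pathway genes, 6 higher and 11 lower. For the difference between the responses, DESeq2 called 3 members and limma 0 with either pseudocount (Fgfr2 adjusted p = 0.0619 and 0.0548). Over all genes, DESeq2 called 2.92% higher and 1.48% lower in stress, and 5.65% and 6.95% in CORT. For the difference between the responses it called 1.78% and 0.839%. The share of all genes called also varies with the setting, and it is not given here for the other settings. Fgfr3 in CORT lost its call with limma (adjusted p = 0.102 and 0.0986). The causes were not tested.

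Members called in the main comparisons kept their direction in every setting. Sign changes were limited to values that were not called. With limma on log2(FPKM + 1) and log2(FPKM + 0.1), Spry2 in CORT was −0.00689 and −0.00887, and the difference between responses was −0.0399 and −0.0487 for Egfr and 0.0381 and 0.0404 for Fgfr3. Fgfr3 was also 0.00713 with DESeq2 and 0.00718 with its size factors, and Fgfr4 between vehicle and Ctrl 0.000119 with log2(FPKM + 0.1). With a library left out, log2 values ran in stress from −0.15 to 0.0414 (Egfr, with −0.0640 without Ctrl 2 and 0.0163 without stress 4+5+6), −0.00192 to 0.09 (Erbb2), −0.43 to 0.04999 (Spry2) and −0.36 to 0.68 (Spry4, with −0.16 without stress 1+2), and in CORT from −0.26 to 0.00511 (Spry1) and −0.0661 to 0.17 (Spry2). Between vehicle and Ctrl they ran from −0.25 to 0.0456 (Egfr), −0.0107 to 0.11 (Erbb3), −0.0555 to 0.23 (Fgfr3), −0.0926 to 0.0761 (Fgfr4), −0.39 to 0.0851 (Spry2) and −1.30 to 0.0107 (Spry4), and for the difference between responses from −0.0328 to 0.26 (Egfr), −0.40 to 0.0664 (Errfi1) and −0.14 to 0.15 (Fgfr3). Levels moved by less than 1 SD with DESeq2 size factors in all 40 member and group pairs.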
